A study of Mus musculus with 4 samples.

Results

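The mitochondrial solute carriers of the Slc25 family were followed on 4 microarrays of mouse gastric corpus, the acid-secreting part of the stomach. Members were all genes whose updated symbol starts with Slc25a, together with Ucp1, Ucp2, Ucp3, Mpc1 and Mpc2, where a probe set was annotated to that gene alone. This gave 49 of the 22180 genes measured in this way. Ucp2, Mpc2 and the pseudogene Slc25a5-ps were not analysed here, because the annotation used gave them no probe set of their own. For Mpc1, which had more than 1 probe set, the one with the higher mean over the arrays was used.

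The KO mice carried Atp4b-cre with Prkaa1 fl/fl and Prkaa2 fl/fl, so the genes of both catalytic AMPK subunits (AMPK is a kinase that senses cellular energy) were targeted in parietal cells, where the Atp4b promoter drives the Cre recombinase. Their background was mixed, from B6/FVB and B6 parents, whereas the WT mice were C57BL/6. Mice of both genotypes were adults aged 8 to 10 weeks and received an intraperitoneal injection each day for 14 days, either metformin at 300 mg/kg or saline vehicle. The 4 groups were KO metformin, KO vehicle, WT metformin and WT vehicle, with 1 array each, and how many animals an array stands for is not given. The study asked which genes metformin affects in a corpus with mature parietal cells, and which in one with fewer and less mature ones. With 1 array per group no difference between a pair of arrays has a replicate check, and strain background and genotype cannot be told apart.

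Solute carriers of this family sit in the inner mitochondrial membrane, apart from a few in the outer membrane or in peroxisomes, and move nucleotides, phosphate, keto acids, amino acids, cofactors and metals between cytosol and matrix. Mpc1 and Mpc2 form the mitochondrial pyruvate carrier and belong to a separate protein family. Parietal cells, which pump acid against a steep gradient, are among the cells most packed with mitochondria. Metformin acts on mitochondria and is known to raise AMPK activity.

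On the whole series, values are log2 expression levels after robust multi-array averaging (RMA), with medians over 41345 probe sets between 4.40 and 4.55. The standard deviation over probe sets was lowest on the KO vehicle array (2.02) and highest on the WT vehicle array (2.15). Prkaa1 had 8.66, 8.18, 8.90 and 9.46 and Prkaa2 had 7.52, 7.19, 8.02 and 8.90 on the KO metformin, KO vehicle, WT metformin and WT vehicle arrays, so that both targeted genes were lower in KO than in WT at either treatment. The KO vehicle and WT vehicle arrays were the least alike pair over genes (r = 0.905). Comparisons kept the 11090 genes whose mean over the arrays reached 5.03, which is the median of the gene means. A difference of 1 or more on the log2 scale is counted as 2-fold higher or lower. Atp4a, the proton pump subunit that marks parietal cells and so the corpus, had levels between 12.80 and 13.22 on the 4 arrays.

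Of the 49 carriers, 37 passed this level and 12 did not. Those 12 were Slc25a14, Slc25a29, Slc25a18, Ucp3, Slc25a48, Slc25a53, Slc25a41, Slc25a54, Slc25a2, Slc25a43, Slc25a31 and Ucp1. Ucp1, the uncoupling protein of brown fat, had 3.72, 3.57, 3.22 and 3.07 on the KO metformin, KO vehicle, WT metformin and WT vehicle arrays, and Slc25a31, the adenine nucleotide translocase of germ cells, had 3.60, 3.57, 3.41 and 3.09. Their means ran from 3.39 for Ucp1 to 4.89 for Slc25a14, a relative of the uncoupling proteins. Differences at such levels are not read as folds. Over the 37 carriers past the filter, the spread between the lowest and the highest of the 4 arrays had a median of 0.55, against 0.53 over all genes past the filter. It ran from 0.14 for Slc25a27 to 2.45 for Slc25a12. A spread of at least 1 was found for 7 of 37 carriers, or 18.9%, against 12.4% of all genes.

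**Figure D1:**
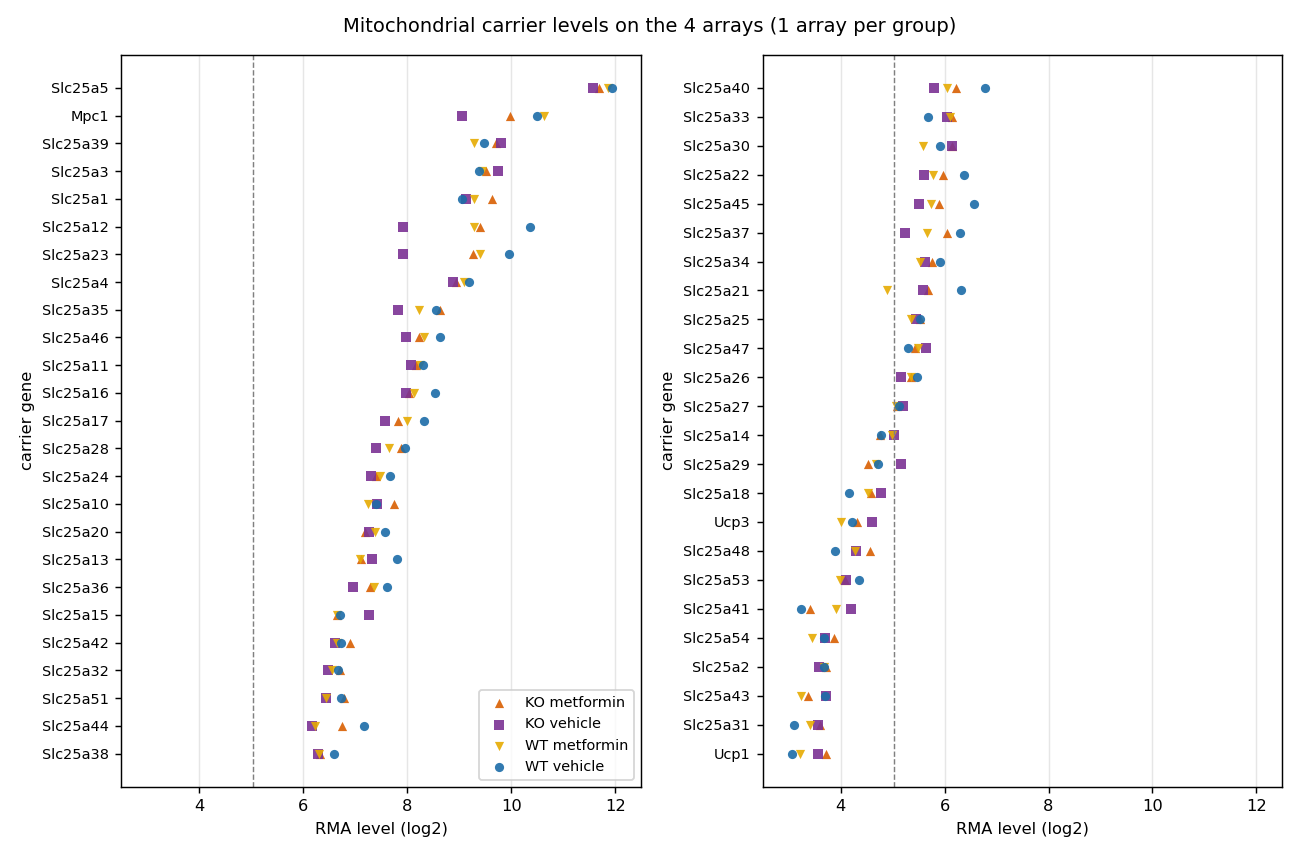
RMA level (log2, horizontal axis) of each of the 49 carriers on the 4 arrays, 1 point per array, with no error bars because each group has 1 array. The dashed line marks the filter value of 5.03, and genes are sorted by mean for display only, since levels of different probe sets are not comparable. The KO vehicle point of Slc25a12 (7.91) and that of Slc25a23 (7.92) stand well to the left of the WT vehicle points (10.36 and 9.95).

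The promoters of Slc25a12 and Slc25a23 are shown because these carriers differed most between arrays. That of Slc25a5 is shown because its mean over the arrays (11.77) was the highest among the 49 carriers. Levels of different probe sets are not comparable, so this does not rank the transcripts. Each sequence runs from 250 bases before to 50 bases after the RefSeq transcription start in build GRCm38.p6, 5′ to 3′ on the gene's strand. Capitals mark matches, on either strand, to a CCAAT box (CCAAT, bound by NF-Y), a GC box (GGGCGG, bound by Sp factors), an estrogen-related receptor element (AAGGTCA) or an E-box (CACGTG).

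Slc25a12, chr2:71367706-71368005, minus strand: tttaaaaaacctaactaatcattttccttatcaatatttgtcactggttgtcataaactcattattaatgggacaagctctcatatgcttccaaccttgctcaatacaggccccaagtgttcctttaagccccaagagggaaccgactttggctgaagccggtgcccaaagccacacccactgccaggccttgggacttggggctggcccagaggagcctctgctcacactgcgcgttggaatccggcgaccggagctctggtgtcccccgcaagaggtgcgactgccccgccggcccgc

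Slc25a23, chr17:57059814-57060113, minus strand, the first of 2 RefSeq starts: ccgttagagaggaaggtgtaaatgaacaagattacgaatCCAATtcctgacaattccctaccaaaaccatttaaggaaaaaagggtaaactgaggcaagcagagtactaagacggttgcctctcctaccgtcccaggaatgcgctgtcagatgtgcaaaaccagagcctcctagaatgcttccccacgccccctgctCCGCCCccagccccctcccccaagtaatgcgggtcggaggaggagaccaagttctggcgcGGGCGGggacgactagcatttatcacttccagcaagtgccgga

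Slc25a5, chrX:36795347-36795646, plus strand: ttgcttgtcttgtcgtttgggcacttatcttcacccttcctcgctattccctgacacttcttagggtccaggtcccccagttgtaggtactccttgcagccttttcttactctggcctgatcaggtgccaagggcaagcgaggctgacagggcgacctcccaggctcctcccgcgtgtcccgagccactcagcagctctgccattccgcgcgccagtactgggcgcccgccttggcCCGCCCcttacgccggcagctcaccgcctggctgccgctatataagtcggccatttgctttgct

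The Slc25a12 window held none of the 4 motifs, the Slc25a23 window held 1 CCAAT box and 2 GC boxes, and the Slc25a5 window held 1 GC box. Promoter sequences were found for 29 of the 37 carriers past the filter, as 37 windows. Of these windows 21 held a CCAAT box and 31 a GC box, while 37.4% and 35.7% of all 32851 promoters did. By gene, 18 of the 29 had a CCAAT box and 25 a GC box. The set of all promoters was not limited to genes past the filter, so these shares are not like for like. The estrogen-related receptor element was in 1 and the E-box in 5 of the 37 windows, and in 4.72% and 7.15% of all promoters. These matches are a description of letters and not of binding, and a missing match concerns only this window.

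Under vehicle, the KO array was compared with the WT array to describe the corpus in which both AMPK genes were targeted in parietal cells. Among the carriers, 6 of 37 past the filter were at least 2-fold lower in KO. They were the aspartate/glutamate carrier Slc25a12, the ATP-Mg/phosphate carrier Slc25a23, the pyruvate carrier subunit Mpc1, Slc25a45, the iron importer Slc25a37 and the branched-chain amino acid carrier Slc25a44. No carrier was 2-fold higher. The 6 make up 16.2% of the carriers, beside 8.12% of all genes past the filter that were 2-fold lower and 2.31% that were 2-fold higher. The median over the 37 carriers was -0.32, against -0.22 over all genes, and 25 of the 37 lay below the median of all genes.

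Slc25a12 brings glutamate into the matrix in exchange for aspartate as a step of the malate-aspartate shuttle. Its log2 values were 9.39 on the KO metformin array, 7.91 on the KO vehicle array, 9.28 on the WT metformin array and 10.36 on the WT vehicle array. The KO vehicle value was the lowest and the WT vehicle value the highest, with both metformin arrays between them. KO differed from WT by 0.11 under metformin and by -2.45 under vehicle, a 5.48-fold lower level.

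Slc25a23 exchanges ATP-Mg for phosphate and so sets the size of the adenine nucleotide pool in the matrix. It had 9.27 on the KO metformin array, 7.92 on the KO vehicle array, 9.39 on the WT metformin array and 9.95 on the WT vehicle array. The order of the arrays was close to that of Slc25a12, with the KO vehicle array far below the other 3. Its difference between KO and WT was -0.12 under metformin and -2.03 under vehicle, a 4.08-fold lower level.

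Both carriers bind calcium through EF hands on the cytosolic side, a feature shared by 5 members past the filter. The other 3 had smaller differences between KO vehicle and WT vehicle. Slc25a13, the second aspartate/glutamate carrier, differed by -0.47, and the ATP-Mg/phosphate carriers Slc25a24 and Slc25a25 by -0.38 and -0.08. The calcium-binding carriers were thus not alike, and their spread ran from -2.45 to -0.08.

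Mpc1 forms the pyruvate carrier with Mpc2. It had 9.98 on the KO metformin array, 9.05 on the KO vehicle array, 10.63 on the WT metformin array and 10.50 on the WT vehicle array. Both KO values lay below both WT values, and the difference was -0.65 under metformin and -1.45 under vehicle. The gene's other probe set did not show this. Its values were 5.42, 5.78, 5.76 and 5.84 in the same order, with differences of -0.34 under metformin and -0.06 under vehicle, and with the mean of both probe sets the vehicle difference was -0.76. Which probe set follows the Mpc1 transcript was not tested, so the 2-fold count includes Mpc1 with this doubt.

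The remaining 3 were just past 2-fold. Slc25a45, a relative of the basic amino acid carriers, had 5.88, 5.51, 5.75 and 6.56 on the KO metformin, KO vehicle, WT metformin and WT vehicle arrays, a vehicle difference of -1.05. Slc25a37 (mitoferrin 1), which brings iron to the matrix for heme and iron-sulfur clusters, had 6.05, 5.25, 5.67 and 6.30 on those arrays, also a difference of -1.05. In Slc25a44 the values were 6.74, 6.16, 6.23 and 7.17, with -1.01. In each of these genes the WT vehicle array was highest and the KO vehicle array lowest. Slc25a40, one of the glutathione carriers, lay just inside the limit at -0.98, and the next was the glutamate carrier Slc25a22 at -0.77.

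**Figure D2:**
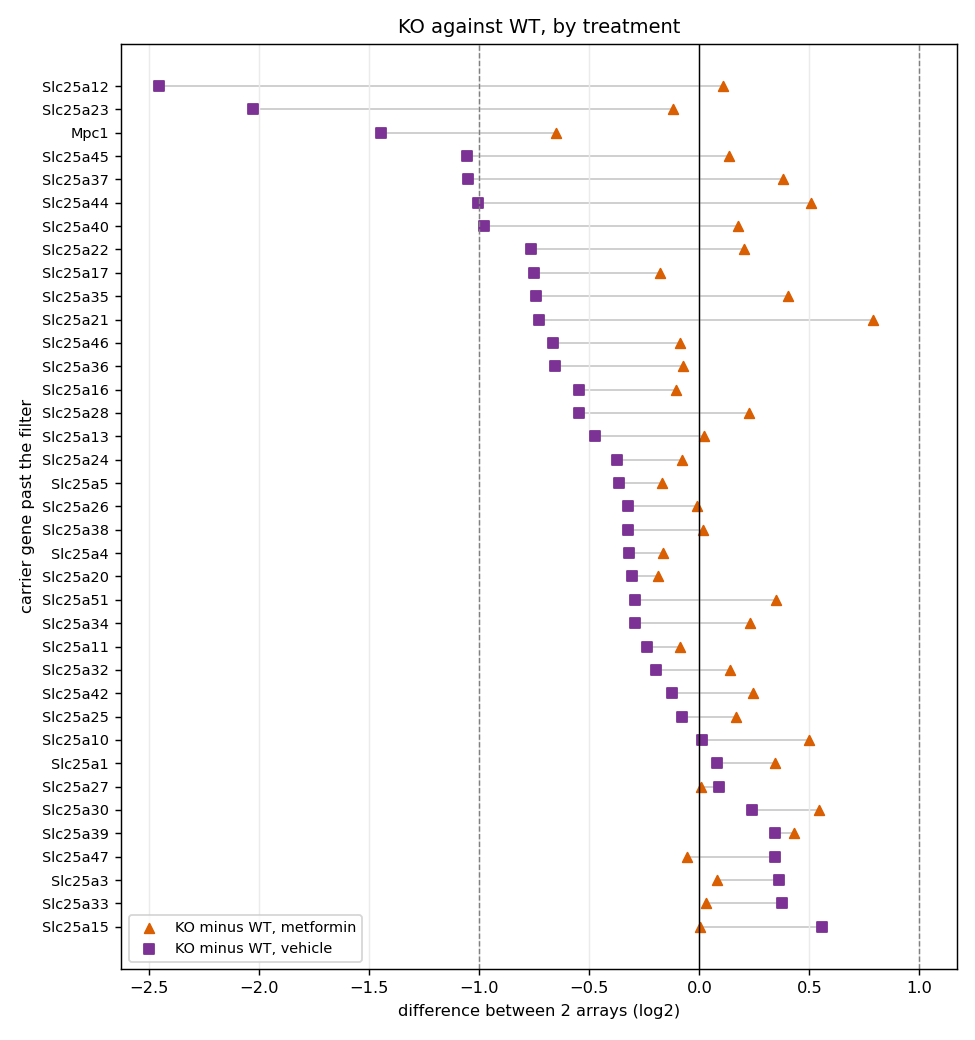
Difference between a KO and a WT array (log2, horizontal axis) for each of the 37 carriers past the filter, under metformin (triangles) and under vehicle (squares), 1 pair of arrays each and no error bars. Dashed lines mark 2-fold. Under vehicle 6 carriers lie past the left line, down to -2.45 for Slc25a12, and under metformin all 37 lie between -0.65 and 0.79.

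By role, the differences under vehicle were uneven. The amino acid carriers had 8 of 12 measured members past the filter and a median of -0.62, with 3 at least 2-fold lower, but the ornithine carrier Slc25a15 was the highest of all 37 at 0.56, with 6.65, 7.25, 6.65 and 6.70 on the KO metformin, KO vehicle, WT metformin and WT vehicle arrays. Slc25a47, a carrier known from liver, was also above 0, at 0.34. The heme-related glycine carrier Slc25a38 differed by -0.32. The adenine nucleotide and phosphate carriers had a median of -0.34 over 6 members past the filter. Among them the nucleotide translocases Slc25a5 and Slc25a4, which exchange ATP and ADP, differed by -0.37 and -0.32, and the phosphate carrier Slc25a3 by 0.36. Slc25a5 had 11.70, 11.57, 11.87 and 11.94 and Slc25a4 had 8.93, 8.87, 9.10 and 9.19 in the same order of arrays. Slc25a3 had 9.51, 9.74, 9.43 and 9.38. Both translocases were lower and the phosphate carrier higher on the KO vehicle array than on every other array.

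Carriers of keto acids had 7 members past the filter and a median of -0.29 under vehicle. The citrate carrier Slc25a1, which exports citrate for lipid synthesis, had 9.64 on the KO metformin array, 9.14 on the KO vehicle array, 9.29 on the WT metformin array and 9.05 on the WT vehicle array, a vehicle difference of 0.08. The dicarboxylate carrier Slc25a10 differed by 0.01 and the oxoglutarate carrier Slc25a11, the partner of Slc25a12 in the malate-aspartate shuttle, by -0.24. The oxoadipate carrier Slc25a21 differed by -0.73, and the carriers Slc25a35 and Slc25a34, which were placed in this group by kinship, by -0.74 and -0.29.

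Carnitine and cofactor carriers had 11 members past the filter, none of them past 2-fold under vehicle, with a median of -0.31. The lowest were Slc25a40 (-0.98), the peroxisomal cofactor carrier Slc25a17 (-0.75) and the pyrimidine nucleotide carrier Slc25a36 (-0.65). Slc25a16, linked to coenzyme A, differed by -0.55. The highest were the other pyrimidine nucleotide carrier Slc25a33 (0.37) and the glutathione carrier Slc25a39 (0.34). Hence the members of both the glutathione pair and the pyrimidine nucleotide pair lay on opposite sides of 0. The carnitine/acylcarnitine carrier Slc25a20, which takes fatty acids into the matrix for oxidation, had 7.18, 7.26, 7.37 and 7.57 on the KO metformin, KO vehicle, WT metformin and WT vehicle arrays, a difference of -0.31. Slc25a42 (coenzyme A), Slc25a32 (folate or FAD), Slc25a51 (NAD) and Slc25a26 (S-adenosylmethionine) lay between -0.32 and -0.12.

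The second mitoferrin, Slc25a28, had -0.55. Slc25a46, an outer-membrane member with a part in mitochondrial dynamics, had -0.67. The uncoupling protein relatives Slc25a30 and Slc25a27 had 0.24 and 0.09.

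Under metformin, the same comparison of KO with WT gave no carrier past 2-fold in either direction. Of all genes past the filter 0.532% were 2-fold higher and 0.388% 2-fold lower, so that a count of 0 among 37 is near what this background gives. The carriers had a median of 0.08, against 0.02 over all genes. The 5 highest were Slc25a21 (0.79), the uncoupling protein relative Slc25a30 (0.55), Slc25a44 (0.51), Slc25a10 (0.50) and Slc25a39 (0.43). The 5 lowest were Mpc1 (-0.65), Slc25a20 (-0.19), Slc25a17 (-0.18), Slc25a5 (-0.17) and Slc25a4 (-0.17). Slc25a12, Slc25a23, Slc25a45, Slc25a37 and Slc25a44, each at least 2-fold lower in KO under vehicle, had 0.11, -0.12, 0.14, 0.38 and 0.51 under metformin. These 2 comparisons share no array.

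In WT, the metformin array was compared with the vehicle array, and 2 of 37 carriers were 2-fold lower with metformin. Slc25a21 had 4.89 on the WT metformin array and 6.32 on the WT vehicle array (-1.42). No fold is given for it, since its metformin level was below the filter. Slc25a12 was 2.11-fold lower (-1.08). Of all genes past the filter 0.929% were 2-fold lower and 0.775% 2-fold higher, and no carrier was 2-fold higher. The median over the carriers was -0.25, against -0.14 over all genes, and 32 of 37 carriers had a negative difference, as did 65.3% of all genes.

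After Slc25a21 and Slc25a12, the lowest carriers in the WT response were Slc25a44 (-0.94), Slc25a45 (-0.82) and Slc25a40 (-0.73). The highest were Slc25a33 (0.43), Slc25a1 (0.24), Slc25a47 (0.19), Mpc1 (0.14) and Slc25a3 (0.06). Slc25a33, which imports pyrimidine nucleotides for mitochondrial DNA and RNA, had 6.11 on the WT metformin array and 5.68 on the WT vehicle array. The amino acid carriers had the lowest median among the roles with more than 2 members past the filter (-0.66), with Slc25a13 at -0.71 and Slc25a22 at -0.61. The WT response and the vehicle comparison of genotypes share the WT vehicle array, on which 23 of 37 carriers had their highest value, so the values of the same genes in both are not separate findings. Of all genes, 46.2% were highest on that array.

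In KO, the metformin array was compared with the vehicle array, and 2 of 37 carriers were 2-fold higher with metformin. Slc25a12 was 2.80-fold higher (1.48) and Slc25a23 2.55-fold higher (1.35), while 2.44% of all genes past the filter were 2-fold higher. No carrier was 2-fold lower, as 0.613% of all genes were. The median was 0.20, against 0.11 over all genes. Next came Mpc1 (0.93), Slc25a35 (0.81) and Slc25a37 (0.80), and the lowest were Slc25a15 (-0.60), Slc25a3 (-0.23), Slc25a13 (-0.21), Slc25a47 (-0.21) and Slc25a27 (-0.13). The citrate carrier Slc25a1 was higher by 0.50 and the dicarboxylate carrier Slc25a10 by 0.33. This comparison shares the KO vehicle array with that of the genotypes under vehicle. On the KO vehicle array 23 of 37 carriers had their lowest value, beside 44.2% of all genes.

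The KO and the WT response have no array in common. In 26 of 37 carriers the difference with metformin was positive in KO and negative in WT, and in 2 (Slc25a3 and Slc25a47) it was the other way round. Opposite signs were thus found in 75.7% of carriers and in 65.9% of all genes past the filter. Mpc1, Slc25a1 and Slc25a33 were higher with metformin in both genotypes, by 0.93, 0.50 and 0.09 in KO and by 0.14, 0.24 and 0.43 in WT. Lower in both were Slc25a13, Slc25a15, Slc25a20, Slc25a27, Slc25a30 and Slc25a39, with Slc25a15 lowest in KO (-0.60, against -0.044 in WT) and Slc25a13 lowest in WT (-0.21 in KO, against -0.71 in WT).

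The KO response minus the WT response was 1 or more for 8 of 37 carriers, or 21.6%, beside 11.2% of all genes, and no carrier reached -1, as 3.61% of all genes did. The 8 were Slc25a12 (2.56), Slc25a23 (1.91), Slc25a21 (1.52), Slc25a44 (1.51), Slc25a37 (1.43), Slc25a45 (1.19), Slc25a40 (1.15) and Slc25a35 (1.15). This quantity uses all 4 arrays and has no replicate check. Markers of several cell types also reached 1. Of 19 parietal cell markers 5 (Slc9a4, Kcnj15, Aqp4, Slc26a9 and Vegfb) did so and none reached -1. Their median was 0.63, against 0.44 for the carriers and 0.26 for all genes, with Atp4a at 0.39. Of the squamous markers past the filter 4 of 6 reached 1 (Krtdap, Cnfn, Krt10 and Sprr1a). Krtdap was above the filter value only on the KO metformin array (9.13), and Krt10 and Cnfn were under it on the WT vehicle array (4.66 and 4.71). Passing the filter and a high difference thus rest partly on the same array, and this count is not read further. So did 1 of 7 endothelial, 1 of 7 chief cell and 1 of 11 smooth muscle markers. Mucous neck and pit cell markers had 2 of 7 at 1 or more and 1 at -1 or less, as had immune markers. Adipocyte markers had 1 of 4 at -1 or less. The part of any of these cell types in the carrier values was not tested.

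**Figure D3:**
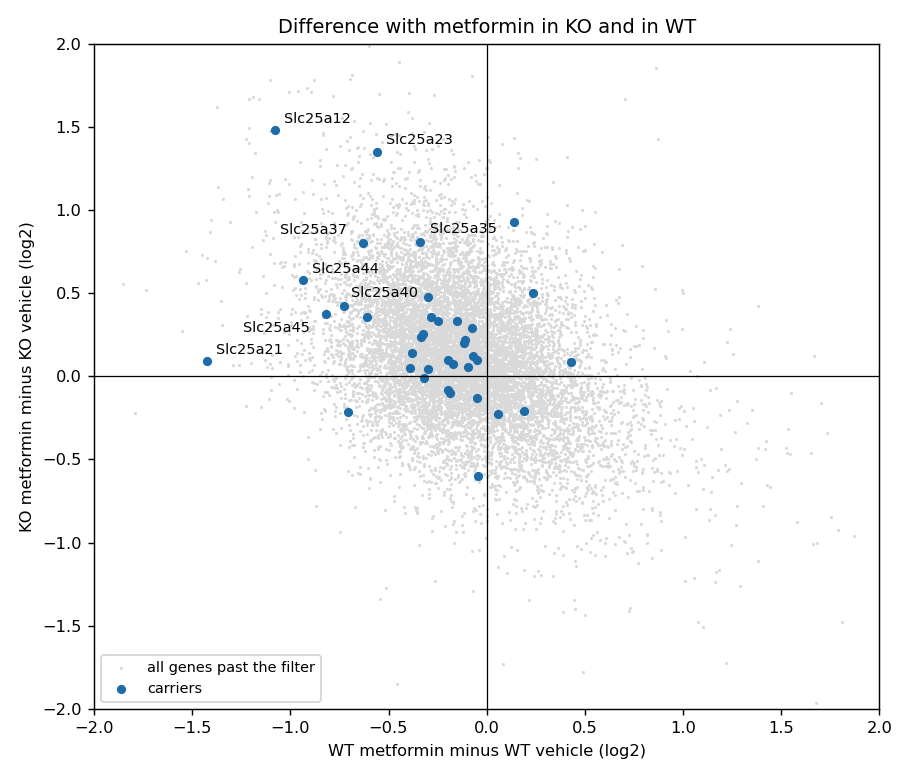
Difference with metformin in KO (log2, vertical axis) against that in WT (log2, horizontal axis), with 1 point per gene, for the 37 carriers (blue) and all genes past the filter (grey, of which 26 lie outside the axes). The 8 labelled carriers have a KO response above the WT response by 1 or more, and 26 carriers lie in the upper left field.

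One fit was possible across all arrays, an additive model of genotype and treatment over 11090 genes in limma, with 1 residual degree of freedom that also holds any difference between the responses. None of the 37 carriers passed an adjusted p of 0.05 for genotype or for treatment. Over all genes 0.0451% passed it for genotype and 0% for treatment. At an unadjusted p under 0.05 there were 2 carriers of 37 for genotype (5.41%), beside 3.37% of all genes, and 0 for treatment, beside 0.289% of all genes. On simulated data with this number of arrays the fit missed most 2-fold changes, finding 10.8% of them, and found 72.4% of changes of 2 on the log2 scale. It also made 22 false calls on average. The simulated genotype effects were equal at both treatments, unlike many genes here. Neither the lack of calls among carriers nor the calls over all genes is therefore read further. The lowest genotype p belonged to Mpc1, with an effect of -1.05 ± 0.32 (SE) and a limma adjusted p = 0.9995 (lower in KO at both treatments). Slc25a23 had an effect of -1.07 ± 0.44 (SE) with the same adjusted p. For treatment the lowest p was that of Slc25a21, with -0.67 ± 0.39 (SE) and a limma adjusted p = 1.

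Other transporters of the mitochondrial membranes were measured for comparison, from a list of 26 genes of which 21 passed the filter. Under vehicle 3 of 21 were 2-fold lower in KO and 1 was higher, with a median of -0.40. Of all genes past the filter 8.12% were 2-fold lower and 2.31% higher, with a median of -0.22. The lower ones were the sideroflexins Sfxn3 (-2.09) and Sfxn2 (-1.04), a family that includes serine transporters, and Mtch2 (-1.28), an outer-membrane relative of the carriers that inserts proteins. Sfxn3 had 8.62, 7.63, 8.79 and 9.72 on the KO metformin, KO vehicle, WT metformin and WT vehicle arrays. This is the same order of high and low arrays as in Slc25a12 except that the 2 metformin arrays change places. Higher was Smdt1 (1.16), the small regulator EMRE of the calcium uniporter, while the pore Mcu differed by -0.044. The outer-membrane channels Vdac1, Vdac2 and Vdac3 differed by -0.22, -0.51 and -0.49. In neither response, nor between genotypes under metformin, was a gene of this list past 2-fold. The KO response minus the WT response was past 1 for Sfxn3 (1.92), Sfxn2 (1.04) and Sfxn1 (1.03), and Smdt1 had -1.07. These 3 of 21 stand beside 11.2% of all genes at 1 or more, and Smdt1 beside 3.61% at -1 or less.

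Mitochondrial protein import, which brings the carriers themselves to the inner membrane, had a median above that of all genes under vehicle. Of 19 genes past the filter, 3 were 2-fold higher in KO and none was lower, beside 2.31% and 8.12% of all genes. The median was 0.16, and 17 of 19 exceeded the all-gene median of -0.22, though some lay below 0, such as Agk (-0.41). The 3 were the receptor-complex subunit Tomm7 (1.70) and the small intermembrane-space chaperones Timm13 (1.01) and Timm10 (1.01), of which Timm10 hands carriers to the inner membrane. Timm22, the channel that inserts carriers, differed by 0.16, and Timm44 (-0.60) was lowest. With each array centred on its median, 1 gene of this list passed 2-fold and the list's median was 0.0075. In the difference of responses 3 genes of this list were past 2-fold lower and Timm44 (1.07) was higher, beside 3.61% and 11.2% of all genes.

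Among 14 regulators of mitochondrial genes, none differed by 2-fold in any comparison of a pair of arrays. Under vehicle the coactivator Ppargc1a had -0.80, the nuclear receptor Ppard -0.80, Yy1 0.20 and Esrra 0.87. The KO response minus the WT response was past 1 for Ppard (1.07) alone, 1 of 14, beside 11.2% of all genes past the filter.

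Markers of cell types moved beside these values. For the counts that follow, 8.12% of all genes past the filter were 2-fold lower in KO under vehicle and 2.31% higher. Of 19 parietal cell markers 5 were 2-fold lower in KO under vehicle (Aqp4, Slc9a4, Vegfb, Slc26a9 and Kcnj15, from -1.54 to -1.26). Of the 19, 13 lay below the median of all genes and 6 above it, with Atp4a at -0.42, Atp4b at -0.43 and Slc4a2 at 0.15. The mean log2 level of the list was 9.87, 9.59, 9.77 and 10.14 on the KO metformin, KO vehicle, WT metformin and WT vehicle arrays. Smooth muscle markers were 2-fold lower for 4 of 11 under vehicle, namely Acta2, Des, Cnn1 and Smtn (list means 9.31, 8.75, 9.70 and 9.55 in the same order) and endothelial markers for 1 of 7, Plvap (6.94, 6.68, 7.19 and 7.43). Chief cell markers had 1 of 7 lower (Cckar, -1.33), with list means of 10.45, 10.28, 10.32 and 10.48. Mucous neck and pit cell markers had 2 of 7 lower (Muc6 and A4gnt) and none higher, with means of 12.34, 11.88, 12.18 and 12.21. Squamous markers, with 13 of 14 measured, were at 6.40 on the KO metformin array, against 4.69, 4.40 and 4.13 on the KO vehicle, WT metformin and WT vehicle arrays. Immune markers had list means of 6.12, 6.06, 5.42 and 5.46, with Jchain (3.07) and Mcpt2 (3.39) higher and Kit (-1.61) lower in KO under vehicle. Jchain and Mcpt2 were under the filter value on both WT arrays and passed it through the KO arrays, so their differences are not read as folds. Cblif, a chief cell gene in mouse, stands in both the parietal and the chief cell list. Ckm is in the parietal and the skeletal muscle list, Esrrb and Esrrg are parietal markers and regulators, and Ppargc1a is an adipocyte marker and a regulator. Ucp1 is both a carrier and an adipocyte marker. The list mean lay between 4.22 and 4.38 for skeletal muscle markers (4 of 12 past the filter) and between 5.10 and 5.32 for adipocyte markers (4 of 11 measured), with Fabp4 (1.29) higher and Plin4 (-1.21) lower in KO under vehicle. In such bulk RNA fewer cells of a type and less RNA per cell cannot be told apart, and the part of cell composition in the carrier values was not tested.

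Gene span moved with the values as well. With protein-coding genes past the filter divided into quartiles of gene span, the median KO difference under vehicle was -0.26 for the 12 carriers in the shortest quartile, against 0.0015 for all its genes. It was -0.60 for the 4 carriers in the longest quartile, against -0.35 for all its genes. In the quartiles between, from shorter to longer, the carriers had -0.32 (9 genes) and -0.46 (12 genes), against -0.21 and -0.31 for all genes. With array trends on span removed after cyclic loess, the KO difference under vehicle was -2.01 for Slc25a12 and -1.70 for Slc25a23, while Slc25a37 and Slc25a44 had -0.82 and -0.76. These last 2 were inside 2-fold after cyclic loess alone, before the span trend was removed.

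**Figure D4:**
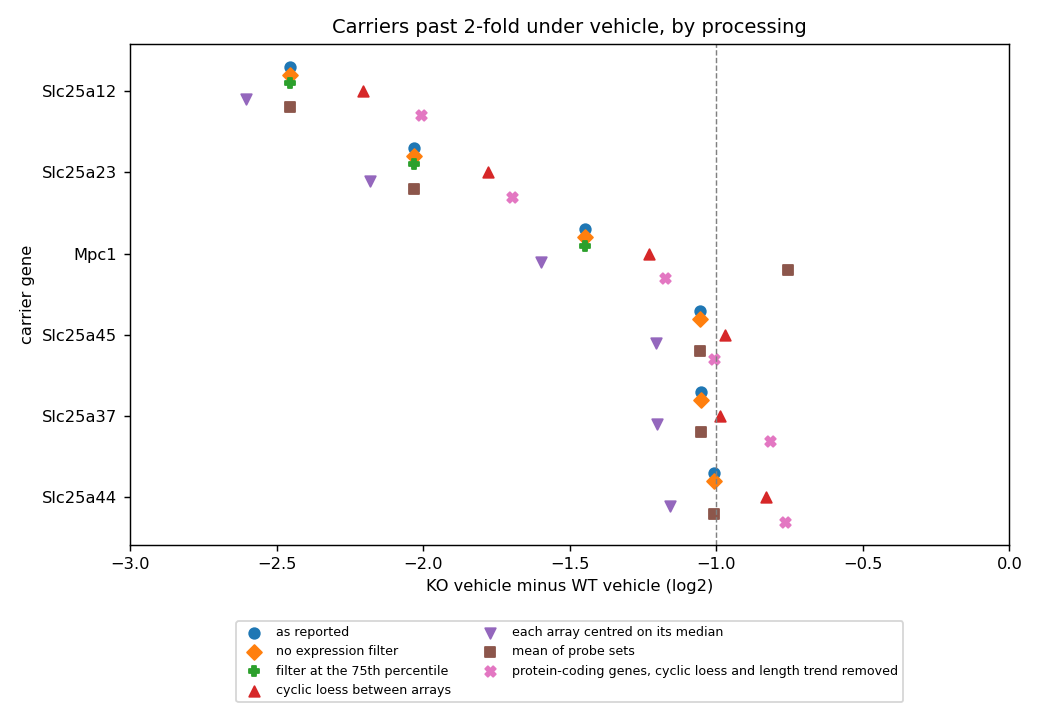
KO vehicle minus WT vehicle (log2, horizontal axis) for the 6 carriers that were 2-fold lower as deposited, with 1 point for each way of processing the same pair of arrays. The dashed line marks 2-fold. Slc25a12 and Slc25a23 stay past it under all 7 settings, Mpc1 lies inside it with the mean of its probe sets (-0.76), and the other 3 lie on both sides.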

How the data were processed

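Corpus RNA was made into biotin-labelled cDNA (Affymetrix WT Plus reagents, per the labels' protocols). The deposited values are log2 expression levels. The submitters' processing notes name RMA and Partek without versions or settings, and the log2 scale was inferred from the range of values.

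Gene names came from the platform annotation of the probe sets (23521 with 1 gene, 1814 with several, 16010 unnamed here), and symbols were updated through gene identifiers in RefSeq for GRCm38.p6 (23328 matched). The probe set with the highest mean stood for a gene, and genes with a mean at or above 5.03 were kept. Differences of log2 values have no p-value. The additive fit used limma 3.58.1 in R 4.3.3 (lmFit, eBayes, Benjamini-Hochberg over 11090 genes), and was tried on simulated data, where it missed most 2-fold changes and made false calls. Other steps used Python 3.11.15, pandas 2.3.3 and statsmodels 0.14.6. All carriers past the filter could be named, and of other lists those past 2-fold and the extremes, beside regulators, channels and Timm22 chosen after their values were seen. Members and lists were chosen with earlier results of these data known. The number of arrays limits the precision.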

Additional observations from a re-analysis of the deposited data

Results flagged for a closer look

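In 8 carriers the difference with metformin ran one way in KO and the other way in WT, and the 2 responses differed by at least 1 on the log2 scale. The KO response minus the WT response was 2.56 for Slc25a12, 1.91 for Slc25a23, 1.52 for Slc25a21, 1.51 for Slc25a44, 1.43 for Slc25a37, 1.19 for Slc25a45, 1.15 for Slc25a40 and 1.15 for Slc25a35. All 8 were higher with metformin in KO and lower in WT, although Slc25a21 was nearly level in KO (0.09). Each response rests on 1 array per group, so the difference between the genotypes was not tested. Of 19 parietal cell markers 5 also had a KO response above the WT response by 1 or more. So did 4 of 6 squamous markers and 2 of 7 mucous neck and pit cell markers, of which 1 other reached -1. The squamous count is not read further, since Krtdap was above the filter value only on the KO metformin array. The part of any cell type in the carrier values was not tested. Among all genes past the filter 1610 of 11090 met the same 2 conditions.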

How the results depend on the processing

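No paired analysis was possible because each group has 1 array, and no array could be left out. Of 1030 differences of single carriers recomputed under the alternatives, 1015 stayed on the same side of 2-fold, 11 were no longer past it, 4 newly passed it and 0 past 2-fold changed sign. Many of these could not change. Dropping the filter (185 values) or raising it (105 values) left each difference as it was, and the mean of probe sets altered only those of Mpc1. Of the 11 losses, 6 came with cyclic loess, 4 with the length trend also removed and 1 with the mean of probe sets. All 4 gains came with centred arrays. The count of 1015 is therefore not a measure of robustness. Each array's own scale moved the median of all genes, which for KO against WT under vehicle was -0.22 in the deposited values, -0.073 once cyclic loess was applied and -0.37 with arrays centred on their medians, and the carriers' median with it (-0.32, -0.23 and -0.47). With no filter the median in this comparison was 0.031 over all genes and -0.25 over the 49 carriers, so the all-gene median also depends on level. Carriers 2-fold lower in KO under vehicle numbered 6 as deposited, 3 after cyclic loess (Slc25a12, Slc25a23 and Mpc1, beside 5.07% of all genes), 4 with the length trend also removed (4.08%), 5 with the mean of probe sets (7.89%), 7 with centred arrays (12.3%), 3 of 21 with the filter at the 75th percentile (10.4%) and 13 under a 1.5-fold rule (24.4%). In the WT response the 2 lower carriers became 1 under cyclic loess (0.622% of all genes), 1 with the length trend also removed (0.427%), 1 under the stricter filter (1.06%) and 8 under the 1.5-fold rule (9.06%). That rule gave 5 higher and 1 lower carriers in the KO response, beside 12.4% and 3.72% of all genes, and 1 higher and 1 lower between genotypes under metformin, beside 3.11% and 2.67%. There the carriers' median of 0.079 changed sign to -0.075 under the stricter filter. For the difference of responses, the 8 higher carriers became 3 of 21 under the stricter filter, a share near the 14.0% of all genes. They became 6 under cyclic loess (6.93%), 7 with the length trend also removed (5.49%), 9 with centred arrays (16.7%) and 12 under the 1.5-fold rule (28.5%). With no filter 1 carrier (Slc25a41) was lower, beside 5.28% of all genes. The carriers' median of 0.44 became 0.22 after cyclic loess and 0.11 with the length trend also removed. Fewer carriers tested account for the stricter filter's counts, and the cause of the other changes was not tested. No carrier passed in limma under any variance model or scaling tried.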

Other observations

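A probe set annotated to both Rangrf and Slc25a35 had 5.57, 5.74, 5.70 and 5.32 on the KO metformin, KO vehicle, WT metformin and WT vehicle arrays. Its difference between KO and WT was 0.42 under vehicle, where the probe set of Slc25a35 alone gave -0.74. Slc25a41, an ATP-Mg/phosphate carrier without EF hands, lay under the filter value on all 4 arrays, with 3.41, 4.19, 3.91 and 3.25 in the same order, so that its KO response minus WT response of -1.45 is not read as a fold.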
